A study of Mus musculus with 55 samples.

Results

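IL-785 is an inbred line of the Collaborative Cross (CC), a panel of mouse lines that each carry their own mosaic of the genomes of a common set of founder strains. Its members were the 3 mice with IL-785 as their strain label (mice 4272, 4434 and 4477), out of 55 mice in all. They were compared with the other 52 mice, which belonged to 28 lines. All mice were reported as untreated males kept on chow in the same facility, and poly(A) RNA of their livers was sequenced. Of the 29 lines, 8 held 1 mouse, 16 held 2 and 5 held 3. The 3 IL-785 mice are separate animals of 1 line, and their genotypes were not read here. The genotype of the line cannot be told apart from anything else these mice shared.

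The IL-785 mice weighed 15.8, 15.4 and 12.8 g, a mean of 14.7 ± 1.63 g (SD, n = 3). This was the lowest mean of the 29 lines, next to the 14.8 g of the only IL-4032 mouse. The means of the other lines had a median of 23.0 g and reached 32.85 g in IL-4457. The IL-785 mice were 8.1, 8.3 and 9.0 weeks old, and the other mice were between 8.0 and 11.9 weeks old.

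The liver takes part in body growth through an endocrine loop. Growth hormone binds its receptor on hepatocytes, the signal passes through Jak2 and Stat5b, and the hepatocytes secrete insulin-like growth factor 1 (Igf1) together with proteins that carry it in blood. The daily pattern of growth hormone also gives male and female rodent livers different sets of P450 enzymes and other drug-metabolizing genes. Hepatocytes oxidize, conjugate and export drugs, and they answer interferon with a shared set of antiviral genes.

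Total expression is given in FPKM, fragments scaled for the length of the transcript and for all fragments mapped in the mouse, which allows levels of different genes to be compared. The 3 IL-785 libraries held 28.6, 26.4 and 32.4 M fragments assigned to genes, inside the range of the other 52 (20.5 to 34.0 M). The 11284 genes with a maximum of at least 2 FPKM were tested in 3 ways. edgeR's quasi-likelihood test set the IL-785 mice against the mean of the 28 other lines, with the spread between line-mates as the error. limma set the IL-785 line mean against the other line means, with the spread between lines as the error. The last reading was by position, without a test, and took the genes for which all 3 IL-785 mice lay above, or all below, every other mouse. Both tests used Benjamini-Hochberg adjusted p-values under 0.05 as the call, and differences are given as log2 fold changes, positive where IL-785 was higher.

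The 3 IL-785 livers resembled each other more than other livers. Across 5949 variable genes their Spearman correlations with each other were 0.940, 0.954 and 0.955, and their median correlations with the 52 other mice were 0.868, 0.870 and 0.865. Line-mates of the other lines had a median of 0.967 and a range from 0.886 to 0.988 over 28 pairs. The IL-785 mice therefore lay inside the range of other line-mates, on the lower side of its median.

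Mouse 4477 stood apart from its line-mates at several genes. Xist, the RNA that coats the inactive X chromosome of females, was at 39.5 FPKM in mouse 4477, against 0.00 and 0.02 FPKM in mice 4272 and 4434 and at most 0.12 FPKM in the other 52 mice. The Y-linked genes of mouse 4477, which was reported as a male, were at the level of the other mice. Ddx3y was at 12.6 FPKM (13.5 and 15.6 in its line-mates) and Eif2s3y at 18.9 FPKM (20.1 and 26.04). Mgst2, a microsomal glutathione transferase, was at 27.2 and 24.8 FPKM in mice 4272 and 4434 and at 0.01 FPKM in mouse 4477. edgeR called Mgst2 higher in IL-785 (log2 fold change 7.79), and the call held without mouse 4477. At this gene mice 4272 and 4434 thus lay above the mean of the other lines. Xist and the Y-linked genes were looked up after the values were seen. What sets mouse 4477 apart was not tested. Of 98 genes followed singly that edgeR called, 33 lost the call without mouse 4477, 23 without mouse 4434 and 20 without mouse 4272.

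Defining markers of hepatocytes, such as Alb and Apoa1, were summed over 8 genes and came to 48850, 48065 and 55938 FPKM in the 3 mice, inside the range of the other mice (28784 to 72309). Of these 8 genes edgeR called 1 higher, Cps1, with 2 called higher without mouse 4434 and 0 without mouse 4477. The 3 skeletal muscle markers Ckm, Acta1 and Mylpf summed to 48.3 and 50.6 FPKM in mice 4272 and 4434 but 0.27 FPKM in mouse 4477, against a median of 0.495 and a range of 0.26 to 1152 FPKM in the other mice. The 3 adipose markers Adipoq, Cfd and Plin1 summed to 7.71 FPKM in mouse 4434, against 0.07 and 0.10 FPKM in its line-mates. edgeR called all of these 6 muscle and adipose markers higher in IL-785. The adipose calls were lost without mouse 4434. Among markers of stellate cells Des was called higher, at 2.99, 4.20 and 0.41 FPKM, which is low in the same mouse as the muscle markers, and among erythroid markers Alas2 was called higher. Des lost its call without mouse 4434, and Alas2 without mouse 4272 and without mouse 4434. The lists for Kupffer cells, cholangiocytes, sinusoidal endothelial cells, lymphocytes, neutrophils and pancreas held no call, and in these lists every summed level of the IL-785 mice lay inside the range of the other mice. Only 3 of 6 cholangiocyte and 2 of 6 lymphocyte markers were tested. Of the 3 cholangiocyte markers, 2 were called lower without mouse 4272 and 3 without IL-1052 and IL-2750. Against lines of at most 20 g, 1 of them was called lower and 1 Kupffer cell marker higher. In whole liver, fewer cells of a type and less RNA per cell cannot be told apart.

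edgeR called 2390 of the 11284 genes (21.2%) in IL-785, of which 1443 (12.8%) were higher and 947 (8.39%) lower. This split depended on the scaling, since scaling by library size alone gave 972 higher and 1167 lower. At least 2-fold differences made up 520 of the higher calls (4.61%) and 243 of the lower calls (2.15%). Without mouse 4477, 1581 genes were called and 1496 of these were among the 2390. The test on line means called 37 genes (0.328%), 26 higher (0.23%) and 11 lower (0.0975%), all of them among the edgeR calls. In 79 genes (0.7%) the 3 mice were outside all other mice, 28 above (0.248%) and 51 below (0.452%). edgeR called all of these 79. Without mouse 4477 the 2 numbers were 97 and 117. The shares of all genes that edgeR called higher and lower were 11.7% and 8.26% without mouse 4272, 8.87% and 5.65% without mouse 4434, and 8.62% and 5.39% without mouse 4477, and counts over gene lists are to be read beside these shares.

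Other lines with 3 mice gave similar numbers of edgeR calls in the same fit, in which the lines share the mice they are compared with. IL-2750, which also held 3 mice, was left out of this comparison because its labels are in doubt. IL-2156 had 2098 higher and 1381 lower, IL-611 had 1106 and 800, and IL-670 had 1287 and 982. On line means, IL-2156 had 8 higher and 2 lower, IL-611 had 1 and 0, and IL-670 had 2 and 4. By position, IL-2156 had 22 above and 23 below, IL-611 had 8 and 10, and IL-670 had 18 and 44. The number of edgeR calls in IL-785 thus lay inside the range of these lines, while its number of calls on line means was above theirs.

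All 3 criteria were met by 24 genes (0.213%), 14 higher (0.124%) and 10 lower (0.0886%) in IL-785. Of these, 11 bear provisional clone, pseudogene or predicted-gene names, and the 13 others are described here. They were chosen for their position, so that the gap to the other mice is a description.

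Cyp4f14, a P450 enzyme that hydroxylates fatty acids, leukotriene B4 and vitamin E, was nearly absent from IL-785 livers. Its levels were 0.64, 0.67 and 1.03 FPKM in the IL-785 mice and between 35.3 and 141 FPKM in all other mice. The median line was at 88.2 FPKM, 113-fold above the IL-785 mean of 0.78 ± 0.217 FPKM (SD, n = 3). The log2 fold change was -6.71 ± 0.34 (SE), with an adjusted p of 1.81e-15 by edgeR's quasi-likelihood test and 9.45e-14 by limma on line means. The mice held 39, 38 and 71 fragments of the gene, against at least 2189 in any other mouse. Cyp4f14 lies on the minus strand of chromosome 17, at chr17:33042016-33054023 (NCBI build 37). Of its family members, which were picked after their values were seen, Cyp4f15 at 32.6, 35.6 and 42.1 FPKM and Cyp4f13 at 24.5, 22.9 and 24.8 FPKM lay inside the range of the other mice. Cyp4f17 was above it, at 7.17, 9.20 and 7.30 FPKM against 0.93 to 6.60 FPKM. Of these 4 family members Cyp4f14 was the one below the range of the other mice.

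The neighbouring solute carriers Slc22a28 and Slc22a30, of the organic anion transporter family, differed in opposite directions. Slc22a30 (chr19:8409861-8479601, minus strand) was at 6.50, 7.05 and 3.94 FPKM in IL-785, against 22.2 to 153 FPKM elsewhere. Its log2 fold change was -4.08 ± 0.26 (SE; adjusted p = 6.10e-13, edgeR's quasi-likelihood test). Slc22a28 (chr19:8136699-8206472, minus strand) was at 98.0, 94.8 and 65.7 FPKM in IL-785, against 1.13 to 49.98 FPKM. Its log2 fold change was 3.43 ± 0.23 (SE; adjusted p = 1.57e-12 by the same test). The groups did not overlap at either gene, although the highest other mouse at Slc22a28 lay only 1.31-fold below the lowest IL-785 mouse. Fragments shared between such related genes were divided by the quantification, so each level carries that uncertainty.

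Genes tied to interferon were also among the lowest. Ifi27l1, named for its family of interferon-inducible proteins, was at 2.94, 0.83 and 2.06 FPKM in IL-785 and between 8.08 and 223 FPKM in the other mice. AW112010, an interferon-induced transcript of immune cells, was at 12.2, 8.64 and 14.7 FPKM, against 28.5 to 209 FPKM. All 3 mice were below all 52 others at both genes, with log2 fold changes of -5.31 ± 0.40 and -2.85 ± 0.31 (SE).

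Among calcium-related genes, S100a1, a calcium-binding protein, was at 18.2, 18.9 and 20.4 FPKM against 56.2 to 138 FPKM. Capn1, the catalytic subunit of the calcium-dependent protease calpain 1, was at 0.55, 0.58 and 0.49 FPKM against 1.80 to 7.54 FPKM. The RNA-binding splicing regulator Khdrbs3 was at 0.52, 0.58 and 0.36 FPKM, and here the other mice began just above, at 0.61 FPKM, and reached 10.8 FPKM. S100a1 had the tightest values of the 3 genes, with an SD of 1.08 FPKM on a mean of 19.2 FPKM.

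Higher in IL-785 were Bace2, an aspartyl protease related to the beta-secretase, at 7.28, 8.33 and 7.91 FPKM against 0.36 to 1.93 FPKM, and Ica1, islet cell autoantigen 1, at 8.84, 6.48 and 3.72 FPKM against 0.10 to 0.77 FPKM. Their log2 fold changes were 3.10 ± 0.13 and 4.11 ± 0.17 (SE). Cox6b2, the testis form of a cytochrome c oxidase subunit, was at 4.10, 5.32 and 4.53 FPKM against at most 1.17 FPKM. Pxt1, named as a testis-specific peroxisomal protein, was at 1.26, 1.81 and 2.16 FPKM, and was listed at 0 in 44 of the other mice, whose highest was 1.04 FPKM. Tdpoz2, which the annotation holds as a pseudogene, was at 0.83, 1.31 and 2.65 FPKM and was listed at 0 in all 52 other mice. These last 2 genes rest on few fragments (23 to 87 per IL-785 mouse), and DESeq2 did not call them (adjusted p = 0.514 for Pxt1 and 0.409 for Tdpoz2). Both reached 2 FPKM in mouse 4477 only and passed the filter through it. Bace2, Ica1 and Cox6b2 also stayed under 2 FPKM in all other mice, so they were tested only because IL-785 was high. The other 11 of the 13 genes stayed called in the same direction under all 45 alternatives to the edgeR test. The genes were chosen for their calls and the alternatives reused the same mice, so this too is a description.

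**Figure D1:**
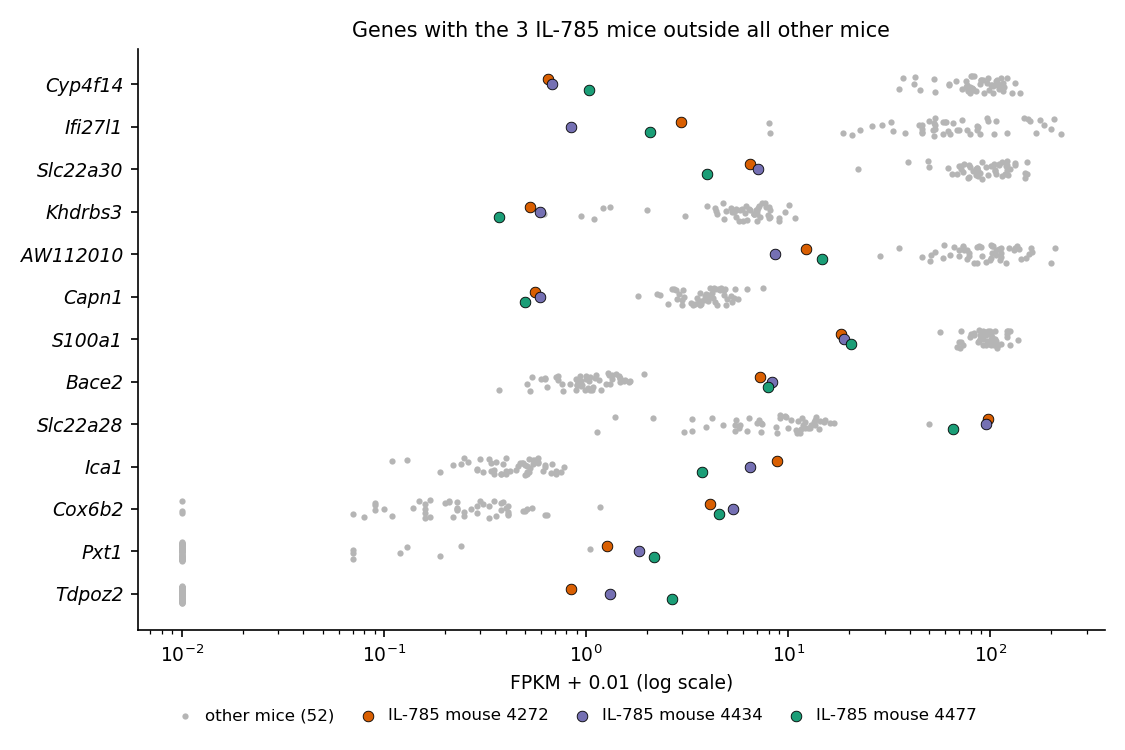
Levels of the 13 genes that both tests called and that placed the IL-785 mice outside all other mice (x axis, FPKM + 0.01 on a log scale; 1 row a gene). Grey points are the 52 other mice and coloured points the 3 IL-785 mice; at Cyp4f14 the IL-785 mice lie between 0.64 and 1.03 FPKM and the grey points between 35.3 and 141 FPKM.

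The isoform ratio, which is the share of a gene's output assigned to 1 annotated transcript in percent, was read as a second measurement. limma called 257 of 5934 ratios (4.33%) in IL-785 with the spread between line-mates, 105 higher (1.77%) and 152 lower (2.56%), and 6 ratios (0.101%) on line means. In 13 cases (0.219%) the 3 mice lay outside all other mice, 5 above (0.0843%) and 8 below (0.135%). Slc22a30, Rhbg and Pon1 met all 3 criteria (0.0506%).

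At Slc22a30 the transcript that made up most of the gene's expression elsewhere received no fragment in IL-785. ENSMUST00000096269 was at 0% in each of the 3 mice, with an estimated count of 0, and between 43.7% and 91.2% in the other mice, with estimated counts of 727 to 8391. The difference was -84.5 ± 3.98 percentage points (SE; adjusted p = 5.77e-15 with limma across mice and 3.97e-14 on line means). The IL-785 mice had 364, 368 and 252 fragments of the gene in all. The IL-785 mice overlapped with no other mouse on either reading, total level or isoform ratio.

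The other Slc22a30 transcripts took up these shares at counts within the range of the other mice or below it. ENSMUST00000078808 made up 47.0%, 37.6% and 58.7% of the expression in IL-785, with estimated counts of 175, 141 and 149 against 9.58 to 209 elsewhere. ENSMUST00000064507 made up 45.1%, 51.2% and 32.4%, with counts of 153, 174 and 74.6 against 18.8 to 908. The counts of ENSMUST00000120540, at 36.9, 52.9 and 28.6, were below those of all other mice (146 to 1315). The median counts of the other mice were 89.8 for ENSMUST00000078808 and 90.04 for ENSMUST00000064507, which all 3 IL-785 mice exceeded at the former and mice 4272 and 4434 at the latter.

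The absent transcript holds a coding exon that none of the other annotated transcripts of the gene has (4 transcripts in all). It is exon 8 of 10 and lies at chr19:8412361-8412469 on the minus strand of NCBI build 37, and its sequence is shown because it sets this transcript apart. The 109 bases of the exon are in capitals, between 20 bases of intron on either side, which together span chr19:8412341-8412489.
Slc22a30 exon 8: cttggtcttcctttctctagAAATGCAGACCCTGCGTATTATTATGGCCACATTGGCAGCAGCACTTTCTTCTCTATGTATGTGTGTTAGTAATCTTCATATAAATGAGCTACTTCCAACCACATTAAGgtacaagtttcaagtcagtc
The exon after it also differs from that of ENSMUST00000078808, since it holds 74 more bases at its start in the absent transcript. The remaining transcripts were not compared at that exon. The reads over these exons were not analysed here, and the ratios rest on the quantification of annotated transcripts.

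Rhbg, an ammonium transporter of the Rhesus family, differed in isoform and in total level. Its transcript ENSMUST00000171887 made up 53.3%, 34.5% and 53.9% in IL-785, against 72.7% to 100% in the other mice. ENSMUST00000163277 made up 30.5%, 65.5% and 46.1%, against at most 2.02% elsewhere. These shares are imprecise, since the estimated counts in IL-785 were 29.1, 13.5 and 38.3 for the first transcript and 10.0, 15.5 and 19.7 for the second. The total level was 1.02, 0.79 and 1.18 FPKM against 2.79 to 19.5 FPKM.

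Pon1, the paraoxonase that the liver secretes onto high-density lipoprotein, had far more fragments behind its ratio. ENSMUST00000002663 made up 64.4%, 60.9% and 75.8% of its expression in IL-785, against 79.7% to 100% in the other mice, a difference of -29.9 ± 1.92 percentage points (SE; adjusted p = 6.07e-12 with limma across mice). ENSMUST00000177159 made up 35.6%, 38.7% and 24.1%, against at most 20.3%. Its estimated counts, 2747, 4927 and 3252, exceeded those of all other mice (at most 1899), so both the share and the count of this transcript were higher. Gpatch4, Rassf4 and Rnf7 were called on line means as well, but there the IL-785 mice overlapped with other mice.

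**Figure D2:**
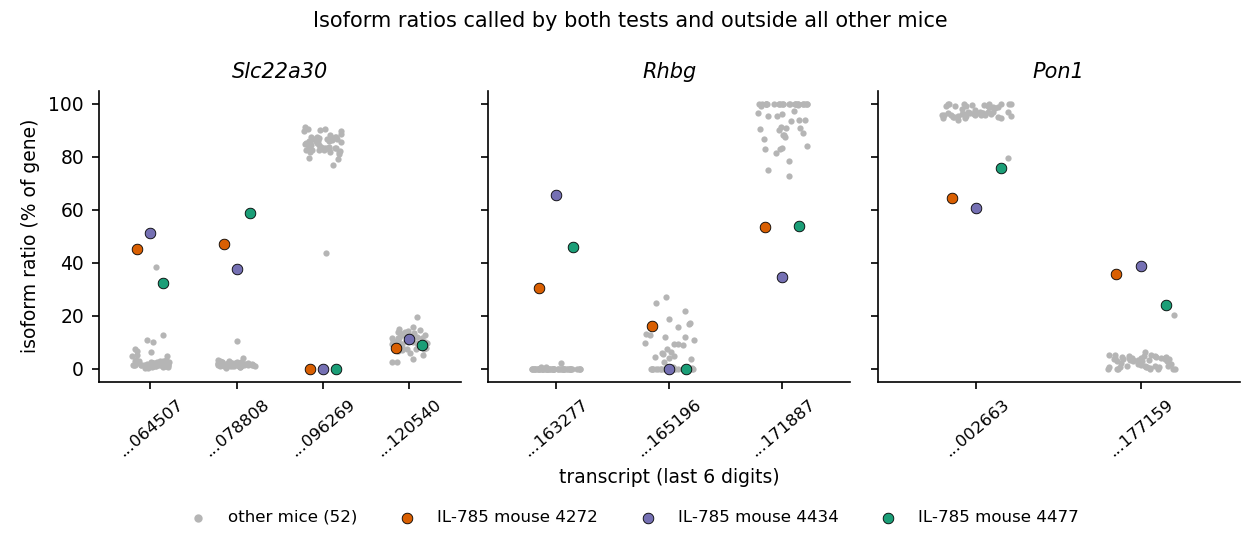
Isoform ratios (y axis, percent of the gene's expression) of the annotated transcripts of Slc22a30, Rhbg and Pon1 that carried expression (x axis, last 6 digits of the transcript identifier). Grey points are the 52 other mice and coloured points the 3 IL-785 mice, which sit at 0% for ENSMUST00000096269 of Slc22a30, where the grey points range from 43.7% to 91.2%.

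The 79 genes with the 3 mice outside all other mice lay close together in places. The genome was cut into windows of 5 Mb, and 527 windows held a tested gene, 49 held a gene of the 79, and 15 windows held 2 or more and together 45 of the 79. Chromosome 11 held 16 of them (of 936 tested genes), chromosome 3 held 12 (of 546), and chromosomes 17 and 19 held 9 each (of 574 and 411). Chromosomes 10, 18 and X held none. CC lines inherit founder segments that span many genes, so neighbouring genes are not independent observations.

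The stretch with the most such genes was on chromosome 3 between 85 and 100 Mb, with 11 of 181 tested genes outside all other mice (6.08%, against 0.7% of all genes), 3 above and 8 below, and 4 isoform ratios outside as well. The 3 above were Tdpoz2, Gm10681 and Gm4450, which stayed under 2 FPKM in all other mice. They were thus tested only because IL-785 was high, and they add to both numbers of the share. The stretch also holds S100a1 and Rhbg. S100a13, chosen here because it begins right behind S100a1, was at 3.05, 2.98 and 3.44 FPKM against 5.49 to 32.6 FPKM. On chromosome 17 between 20 and 35 Mb, 9 of 223 genes lay outside (4.04%), 5 above and 4 below, with Cyp4f14 and Pxt1 among them. On chromosome 11 between 95 and 110 Mb, 8 of 177 genes lay outside (4.52%). On chromosome 19 between 5 and 10 Mb, 5 of 110 did (4.55%), with Capn1, Slc22a28 and Slc22a30 among them. The directions were mixed in each of these stretches, which were picked for their number of such genes. The share was higher still on chromosome 8 between 10 and 15 Mb, but there it rests on 3 genes of 32 (9.38%).

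**Figure D3:**
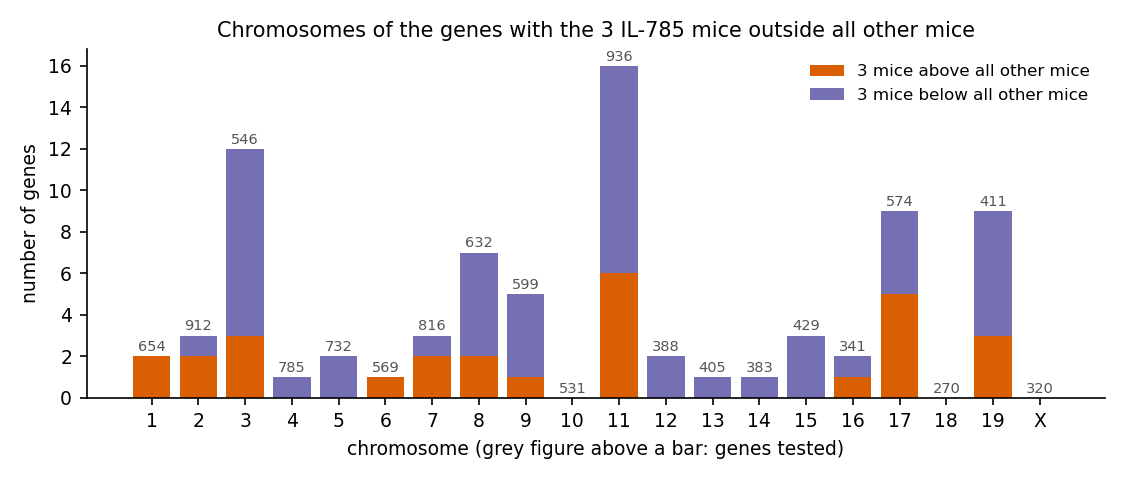
Number of genes with all 3 IL-785 mice outside all other mice (y axis) on each chromosome (x axis), split into genes above and genes below the other mice; the grey figure over a bar is the number of genes tested. Chromosome 11 has the highest bar, with 16 genes of 936 tested, and chromosomes 10, 18 and X have no bar.

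Genes that interferon induces in most cells were lower in IL-785 than in most lines. Of the 33 gene models of the list, edgeR called 19 lower (57.6%) and 2 higher (6.06%), beside 8.39% and 12.8% of all genes. The median log2 fold change was -0.97, beside 0.02 for all genes. Without mouse 4272, 4434 or 4477 the number called lower was 16, 13 or 15. On line means limma called 0 of the 33, although 8 had an unadjusted p under 0.05, all of them lower. The IL-785 line mean was below the median of the other lines for 28 of the 33 models (84.8%, beside 58.1% of all genes). It was among the 3 lowest lines for 17 of them (51.5%, beside 11.0%).

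The largest differences were at antiviral effectors. Ifit3, of the interferon-induced Ifit family, was at 0.40, 0.65 and 0.84 FPKM in IL-785, against a median line of 5.49 FPKM and a range of 0.56 to 20.1 FPKM over the other mice (log2 fold change -2.93 ± 0.37, SE; adjusted p = 6.54e-07, edgeR's quasi-likelihood test). Ifit1 was at 0.57, 0.52 and 0.55 FPKM against 0.82 to 13.6 FPKM. Oasl1, a relative of the oligoadenylate synthetases, was at 0.46, 0.29 and 0.39 FPKM against 0.56 to 8.67 FPKM. The 3 mice were below all others at Ifit1 and Oasl1, and overlapped with the lowest other mice at Ifit3.

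The list did not move as a block. Mx2, an interferon-induced GTPase, was higher in IL-785, at 19.5, 9.83 and 17.6 FPKM against a median line of 2.79 FPKM and at most 20.2 FPKM (log2 fold change 2.66 ± 0.31, SE). Its neighbour Mx1 was called higher as well (log2 fold change 1.21). The transcription factor Stat2, which carries the interferon signal, had a log2 fold change of 0.13 and was not called, and the RNA sensors Ddx58 and Ifih1 had values of 0.09 and 0.07 and were not called. Mx1, Stat2, Ddx58, Ifih1 and the promoter examples Isg15, Rsad2 and Apol9a were picked after their values were seen.

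IL-785 was not alone at the low end of this list. The median over the list of each mouse's log2 difference from the median line was -1.03 in mouse 4272, -1.01 in mouse 4434 and -0.71 in mouse 4477. The line means of this measure were -0.94 in the only IL-1452 mouse, -0.91 in IL-785, -0.84 in the only IL-1141 mouse and -0.48 in IL-670. At the 19 models that edgeR called lower in IL-785, IL-1452 was lower still at 9 and IL-1141 at 7. The order of the 3 lowest lines rests on differences that are smaller than the spread between the IL-785 mice.

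**Figure D4:**
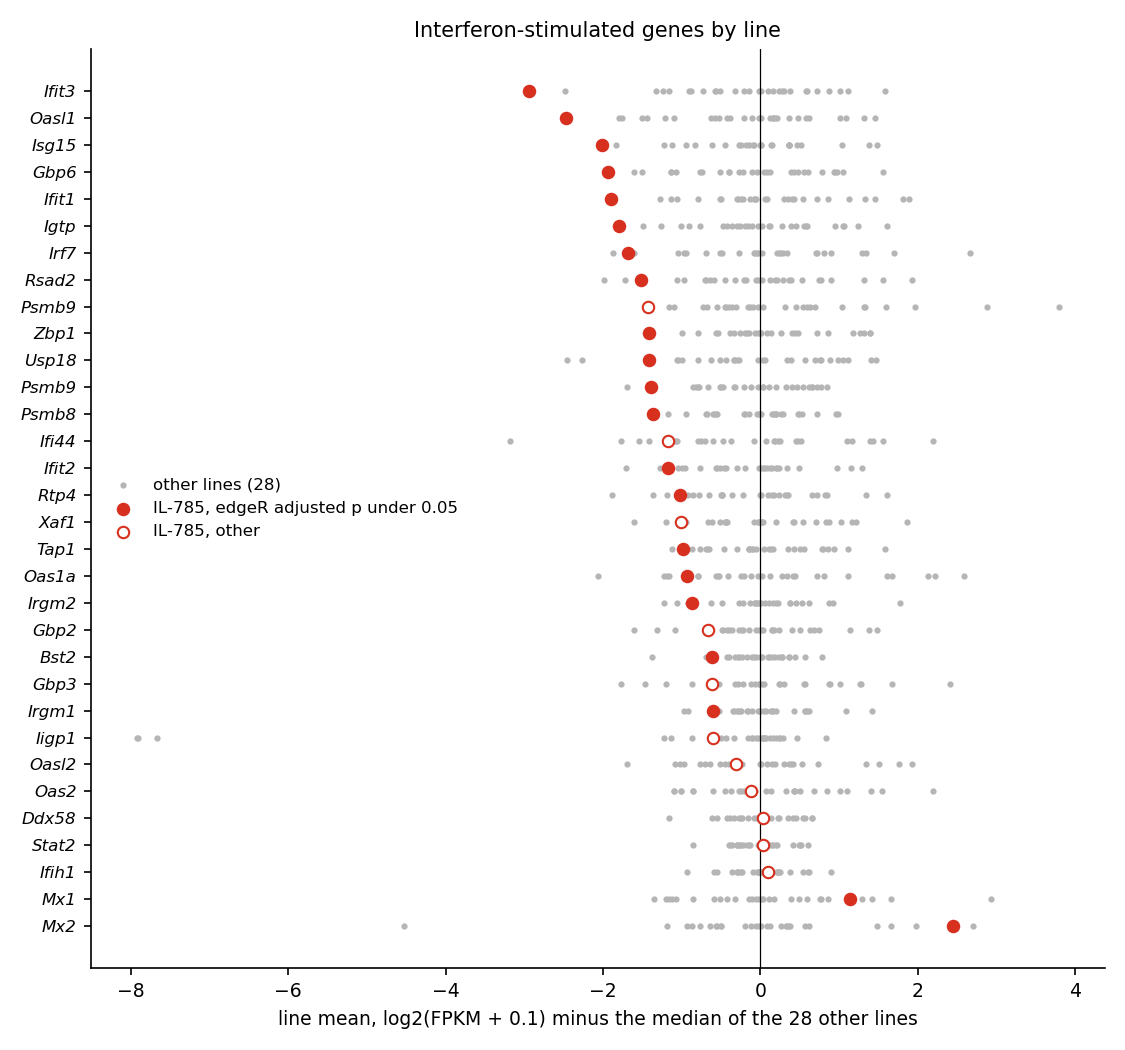
Line means of the interferon-stimulated genes (x axis, log2(FPKM + 0.1) minus the median of the 28 other lines; 1 row a gene model, Psmb9 having 2, for 32 models of the list). Grey points are the other lines and red points IL-785, filled where edgeR called the gene; 27 of these 32 red points lie left of 0, and those of Mx1 and Mx2 lie right of it.

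The promoters of several of these genes hold the motif of the interferon-stimulated response element. The motif was searched as GAAANNGAAA on both strands, with overlapping matches counted, in the 250 bases before each gene start of RefSeq promoters (assembly GRCm38.p6). It was found in 978 of 32851 promoters (2.98%). Of the 32 symbols of the list, 23 had a promoter entry and 12 of these held the motif. Among the 19 called lower, 15 had an entry and 9 held it, and among those not called lower, 8 had an entry and 3 held it. The 160 bases before the start of the gene are shown for 4 genes that were lower in IL-785 and for Apol9a, an apolipoprotein L gene outside the list, with the motifs in capitals.
Ifit1 (chr19:34640729-34640888, plus strand): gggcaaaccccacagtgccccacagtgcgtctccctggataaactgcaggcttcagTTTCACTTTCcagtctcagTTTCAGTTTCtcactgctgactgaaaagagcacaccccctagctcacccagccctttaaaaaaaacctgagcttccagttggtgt
Ifit3 (chr19:34583369-34583528, plus strand): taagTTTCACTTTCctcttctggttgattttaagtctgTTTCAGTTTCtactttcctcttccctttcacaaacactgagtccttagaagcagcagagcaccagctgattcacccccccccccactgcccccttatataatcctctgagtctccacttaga
Isg15 (chr4:156200819-156200978, minus strand): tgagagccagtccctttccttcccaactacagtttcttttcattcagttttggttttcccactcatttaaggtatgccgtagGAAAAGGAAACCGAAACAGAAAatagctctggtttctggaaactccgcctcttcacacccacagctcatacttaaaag
Rsad2 (chr12:26456453-26456612, minus strand): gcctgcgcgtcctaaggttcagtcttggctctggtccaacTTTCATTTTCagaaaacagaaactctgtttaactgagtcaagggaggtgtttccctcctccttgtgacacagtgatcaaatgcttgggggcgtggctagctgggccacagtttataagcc
Apol9a (chr15:77411081-77411240, minus strand): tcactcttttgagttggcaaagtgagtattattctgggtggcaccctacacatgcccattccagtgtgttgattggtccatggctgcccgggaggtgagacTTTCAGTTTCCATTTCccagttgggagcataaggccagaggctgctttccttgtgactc
Isg15 holds 3 overlapping matches, Ifit1, Ifit3 and Apol9a hold 2 each, and Rsad2 holds 1. Isg15, the ubiquitin-like modifier of the interferon response, was at 3.17, 2.18 and 2.97 FPKM in IL-785 against 3.15 to 36.7 FPKM, and the antiviral enzyme Rsad2 was at 0.21, 0.71 and 0.44 FPKM against 0.30 to 7.13 FPKM. Apol9a was at 0.75, 0.35 and 1.04 FPKM against 2.68 to 102 FPKM. A match is a description of these letters in this window, and the sequence of IL-785 itself was not analysed here.

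Genes of antigen presentation were mixed. Psmb8, a subunit of the immunoproteasome, was below all other mice, at 8.87, 7.48 and 9.35 FPKM against 9.82 to 49.0 FPKM, as were its partners Psmb10 (7.85, 5.72 and 7.99 FPKM against 9.75 to 35.8 FPKM) and the proteasome activator Psme2 (49.4, 45.04 and 51.9 FPKM against 54.1 to 122 FPKM). These 3 genes were chosen after their values were seen. Of 17 MHC class I gene models, edgeR called 6 lower (35.3%) and 3 higher (17.6%), beside 8.39% and 12.8% of all genes. H2-K1 was at 93.7, 62.5 and 98.3 FPKM, near the low end of the other mice (75.3 to 894 FPKM), and H2-K2 was at 132, 107 and 81.7 FPKM, near their high end (0.58 to 117 FPKM). These genes are near-identical copies of each other and vary between founders, so the division of fragments among them is uncertain. Of 7 MHC class II genes, edgeR called 1 lower (14.3%, beside 8.39% of all genes). This gene, H2-Eb1, was at 0.19, 0.30 and 0.32 FPKM against a median line of 6.22 FPKM. The 3 mice were not below all other mice at it.

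Of 17 tested growth hormone and IGF genes edgeR called 2 in the smallest line, Igfbp3 and Igfbp1, both higher (11.8%, beside 12.8% of all genes). Without mouse 4272 it called 1. Igf1 was at 336, 290.0 and 307 FPKM in IL-785, against a median line of 275 FPKM and a range of 185 to 466 FPKM (log2 fold change 0.22 ± 0.10, SE; adjusted p = 0.121, edgeR's quasi-likelihood test). The growth hormone receptor Ghr was at 164, 209 and 157 FPKM against a median line of 198 FPKM (log2 fold change -0.20 ± 0.11, SE; adjusted p = 0.224). Igfals, which keeps Igf1 in the circulation, was at 29.9, 35.2 and 33.4 FPKM against a median line of 35.8 FPKM (log2 fold change 0.01 ± 0.15, SE). At all 3 genes the IL-785 mice lay inside the range of the other mice.

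Igfbp3, the main carrier of Igf1 in serum, was at 13.3, 11.4 and 5.45 FPKM against a median line of 5.51 FPKM (log2 fold change 1.00 ± 0.18, SE; adjusted p = 1.44e-04). Igfbp1, which fasting induces, was at 191, 28.1 and 101 FPKM against a median line of 30.2 FPKM (log2 fold change 1.36 ± 0.45, SE; adjusted p = 0.0296 by edgeR's quasi-likelihood test). The spread between the IL-785 mice was wide at Igfbp1, and the call was lost without mouse 4272 and without mouse 4477 (adjusted p = 0.518 and 0.0886 by the same test, the range over all alternatives being 0.00940 to 0.518). Among 5 tested fetal and imprinted growth genes 3 were called higher (60.0%, beside 12.8% of all genes), and 2 without any 1 of the mice. Igf2r, the receptor that clears Igf2, was at 4.99, 6.85 and 6.33 FPKM against a median line of 4.54 FPKM, Dcn at 76.0, 58.4 and 60.8 FPKM against 49.7 FPKM, and H19 at 2.51, 2.56 and 0.15 FPKM against 0.175 FPKM. The call of Dcn was lost whichever mouse was left out. H19 was high in the same mice as the muscle markers (48.3, 50.6 and 0.27 FPKM in sum), whose part in it was not tested, and limma on log2 FPKM did not call it.

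Genes with higher expression in female than in male rodent liver moved with mouse 4477. Of 25 tested genes of this list, edgeR called 14 higher (56.0%) and 0 lower, beside 12.8% and 8.39% of all genes, and the median log2 fold change was 1.25. Without mouse 4477, 3 were called (12.0%, beside 8.62% of all genes) and the median was 0.46. These 3 were Slc22a26, Sult1e1 and the steroid hydroxylase Cyp17a1, which is named after its values were seen. Leaving out mouse 4272 or 4434 left 14 each. The P450 enzyme Cyp3a41a was at 0.67 and 11.1 FPKM in mice 4272 and 4434 and at 334 FPKM in mouse 4477. The estrogen sulfotransferase Sult1e1 was at 0.38, 1.39 and 12.9 FPKM in these mice, where the highest of the other mice had 4.92 FPKM. At Cyp3a41a a mouse of another line reached a higher level, 1549 FPKM. Mouse 4477 was also the mouse with Xist, and the part of that in these values was not tested.

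**Figure D5:**
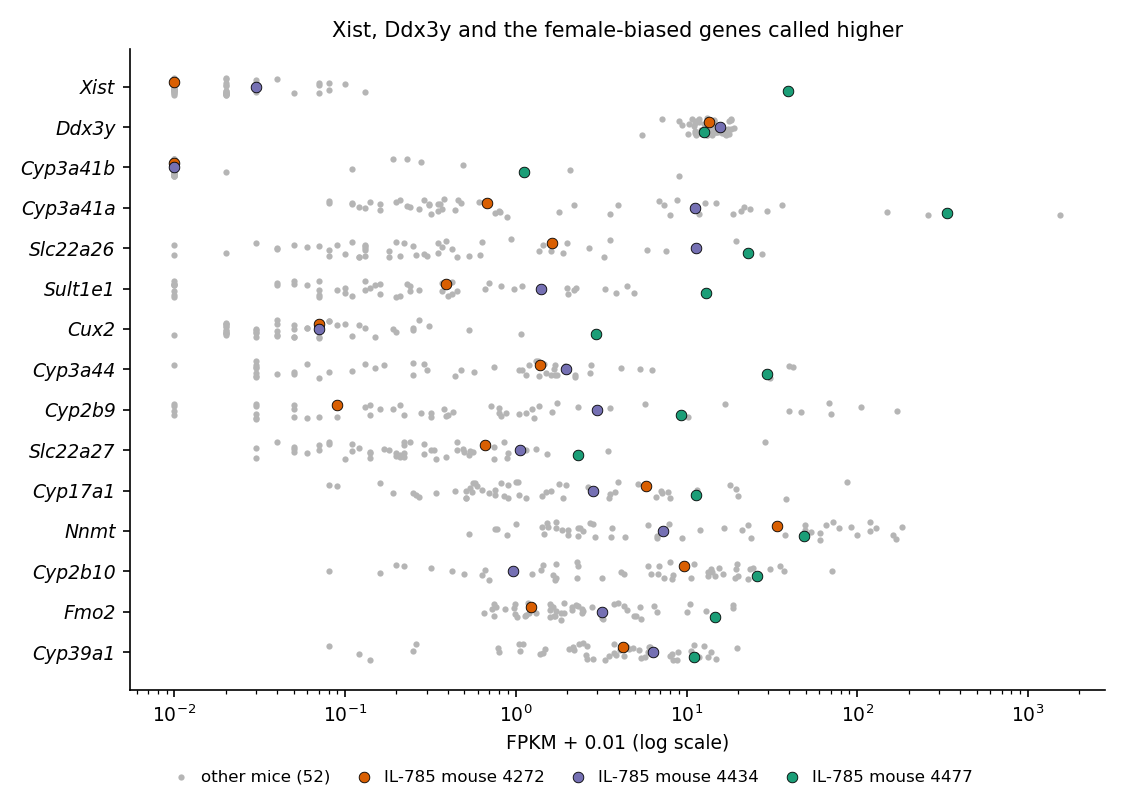
Levels of Xist, the Y-linked Ddx3y and 13 of the female-biased genes that edgeR called higher in IL-785 (x axis, FPKM + 0.01 on a log scale; 1 row a gene). Grey points are the 52 other mice and coloured points the 3 IL-785 mice; mouse 4477 has 39.5 FPKM of Xist, where no grey point is above 0.12 FPKM, and the highest value of the 3 in each of these female-biased genes.

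Genes with higher expression in male liver went both ways. Of 21 genes, edgeR called 6 higher (28.6%) and 4 lower, beside 12.8% and 8.39% of all genes. The numbers were 3 and 4 without mouse 4272, 3 and 2 without mouse 4434, and 6 and 2 without mouse 4477. The major urinary protein Mup1 was at 558, 417 and 334 FPKM against a median line of 21586 FPKM, but the other mice ranged from 19.9 to 80049.7 FPKM and the call was lost whichever IL-785 mouse was left out (adjusted p = 0.0764, 0.124 and 0.132 without mouse 4272, 4434 and 4477 by edgeR's quasi-likelihood test, the lowest over all alternatives being 6.94e-10). Mup genes are near-identical copies, and the division of fragments among them is uncertain. The protease inhibitor Serpina1e was at 9637, 4202 and 5594 FPKM against a median line of 3270 FPKM, a call that was lost against lines of at most 9.1 weeks. Gstp2, a glutathione transferase, was at 134, 101 and 39.8 FPKM against 5.25 FPKM, above the highest other mouse (131 FPKM) in 1 of the 3 mice. Moxd1 was at 6.15 FPKM in mouse 4272 and at 0.00 FPKM in its line-mates, so its call rests on that mouse.

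Drug-handling genes held several large differences and few that were called on line means. In the list for the activation of irinotecan and the glucuronidation of its product, 5 of 22 genes were called higher (22.7%) and 6 lower (27.3%), beside 12.8% and 8.39% of all genes. Without mouse 4477 they were 5 and 2 (22.7% and 9.09%, beside 8.62% and 5.39%). Ces2h, a carboxylesterase, was at 45.1, 53.5 and 40.6 FPKM against a median line of 0.188 FPKM, with IL-2680 reaching 51.1 FPKM on average. Ugt1a10 was at 171, 175 and 149 FPKM against a median line of 3.07 FPKM (log2 fold change 5.12 ± 0.09, SE), and the highest other mouse had 154 FPKM. In the same gene cluster Ugt1a5 was lower, at 4.41, 5.36 and 3.50 FPKM against 12.2 FPKM, Ugt1a6a was lower, at 31.2, 39.6 and 29.6 FPKM against 49.1 FPKM, and Ugt1a6b higher, at 50.2, 58.4 and 47.6 FPKM against 33.4 FPKM. The call of Ugt1a5 was lost without mouse 4477 (adjusted p = 0.0715 by edgeR's quasi-likelihood test, the highest over all alternatives). That of Ugt1a6a was lost without mouse 4272, without mouse 4477, without IL-1052 and IL-2750 and against lines of at most 20 g, with adjusted p between 0.00513 and 0.508 over all alternatives. Ugt1a genes share all exons but the first, so their separate levels rest on that exon.

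Ces1e was lower, at 17.2, 26.9 and 17.3 FPKM against a median line of 92.8 FPKM, the lowest line mean of the 29. Ces3b was at 304, 307 and 179 FPKM against 227 FPKM, and the beta-glucuronidase Gusb at 11.0, 9.97 and 11.2 FPKM against 9.39 FPKM, and neither was called (adjusted p = 0.318 and 0.0655 by edgeR's quasi-likelihood test). Glo1, which detoxifies methylglyoxal, was the lowest of the 29 lines in IL-785, at 108, 127 and 112 FPKM against a median line of 322 FPKM, with mouse 4434 inside the range of the other mice (122 to 844 FPKM; log2 fold change -1.21 ± 0.14, SE).

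Of 26 drug transporters 8 were called higher (30.8%) and 3 lower (11.5%), beside 12.8% and 8.39% of all genes. The numbers were 5 and 2 without mouse 4434, and 4 and 2 without mouse 4477 (15.4% and 7.69%, beside 8.62% and 5.39%). Beside Slc22a28 and Slc22a30 the largest were Slc22a26, at 1.62, 11.4 and 23.0 FPKM against a median line of 0.36 FPKM, and Slc22a27, at 0.65, 1.05 and 2.30 FPKM against 0.303 FPKM. The call of Slc22a27 was lost without mouse 4477. Of 43 drug-metabolizing P450 genes 7 were called higher (16.3%, beside 12.8% of all genes) and none lower, and without mouse 4477 the number was 1 (2.33%, beside 8.62%). The largest 4, Cyp3a41b, Cyp3a41a, Cyp3a44 and Cyp2b9, are all on the female-biased list. Of 16 sulfotransferases and methyltransferases 7 were higher (43.8%, beside 12.8%), and 4 without mouse 4477 (25.0%, beside 8.62%). As3mt, the arsenic methyltransferase, was at 24.7, 18.6 and 28.6 FPKM against 15.2 FPKM, and Sult1a1, which lost its call without mouse 4477, was at 251, 141 and 337 FPKM against 129 FPKM. Of 22 glutathione transferases 5 were higher (22.7%) and 1 lower (4.55%), beside 12.8% and 8.39% of all genes, and 3 and 1 without mouse 4434 and without mouse 4477. Mgst3 was close among the 3 mice, at 31.5, 30.6 and 27.1 FPKM against 10.4 FPKM.

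Of 10 other glucuronosyltransferases 3 were higher and 1 lower (beside 12.8% and 8.39% of all genes). The numbers were 1 and 0 without mouse 4272 and without mouse 4477, and 0 and 1 without mouse 4434. Ugt2b5 was at 672, 820 and 698 FPKM against 579 FPKM, and its call was lost without mouse 4434. Ugt3a2 was at 19.5, 28.8 and 24.1 FPKM against 90.2 FPKM, and its call was lost without mouse 4272 and without mouse 4477. Of 27 nuclear receptors 3 were higher (Ahr, Esr1 and Nr1i3) and 2 lower, which is 11.1% and 7.41%, near the 12.8% and 8.39% of all genes. Without mouse 4477 the numbers were 1 and 1. Esr1 lost its call without mouse 4272 and without mouse 4477, and Nr1i3 without mouse 4434 and without mouse 4477. The aryl hydrocarbon receptor Ahr was at 8.36, 9.39 and 7.32 FPKM against 4.91 FPKM, and Pparg, the fat-storage regulator, was at 0.47, 0.69 and 0.28 FPKM against 2.90 FPKM. The calls of Ahr and Pparg held without each of the 3 mice (adjusted p of at most 0.00858 and 0.00202 over all alternatives to edgeR's quasi-likelihood test).

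Of 21 genes of fatty acid and triglyceride synthesis 1 was higher (4.76%) and 2 lower (9.52%), beside 12.8% and 8.39% of all genes, and without mouse 4477 the numbers were 0 and 1. Scd1, which desaturates stearate, was at 99.0, 239 and 43.3 FPKM against a median line of 478 FPKM, and mouse 4434 lay inside the range of the other mice (127 to 3431 FPKM). The calls of Scd1 and As3mt were lost against lines of at most 20 g. Cyp7a1, the rate-limiting enzyme of bile acid synthesis, was at 24.2, 121 and 137 FPKM against a median line of 23.5 FPKM, so that mice 4434 and 4477 exceeded every other mouse (at most 79.6 FPKM) and mouse 4272 did not. Klb, the co-receptor through which Fgf15 lowers Cyp7a1, was the other called gene of 18 in bile acid synthesis and transport, at 7.11, 11.1 and 13.6 FPKM against 7.04 FPKM. The call of Klb was lost without mouse 4477 (adjusted p = 0.106 by edgeR's quasi-likelihood test, the highest over all alternatives), which left 1 called gene of the 18. Of 28 genes of fatty acid oxidation and ketogenesis Acaa1a was lower, and the fasting hormone Fgf21 higher through mouse 4434 (1.63, 22.7 and 1.16 FPKM against 1.33 FPKM), and both calls were lost without mouse 4434. Of 23 genes of cholesterol synthesis and uptake Idi1 was higher, a call lost without mouse 4272 and without mouse 4434, and Pmvk was lower, at 20.5, 17.5 and 10.0 FPKM against 37.8 FPKM. The shares called higher and lower were 3.57% each for oxidation and 4.35% each for cholesterol, and 11.1% and 0% for bile acids.

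Of 27 acute phase genes 4 were higher and 4 lower (14.8% each, beside 12.8% and 8.39% of all genes), and 2 and 4 without mouse 4477. Orm3, an orosomucoid, was at 73.8, 67.6 and 107 FPKM against a median line of 3.49 FPKM, and higher means were found in other lines too, up to 94.4 FPKM in IL-2156. Lcn2 varied between the IL-785 mice, at 60.8, 5.09 and 216 FPKM, and so did the metallothionein Mt1, at 436, 222 and 1071 FPKM against 121 FPKM, whose call was lost without mouse 4477. Of 21 genes of gluconeogenesis and amino acid breakdown 4 were called, all higher (beside 12.8% of all genes). The number was 9 without mouse 4434 and 2 without mouse 4477 (42.9% and 9.52%, beside 8.87% and 8.62%). Cps1, the entry enzyme of the urea cycle, was at 702, 667 and 980 FPKM against 489 FPKM, the highest line mean of the 29, and its call was lost without mouse 4477 (adjusted p = 0.0566 by edgeR's quasi-likelihood test, the highest over all alternatives). Of 13 genes of the mitochondrial genome edgeR called 0, with an unadjusted p under 0.05 at 2. Of 77 ribosomal protein genes 5 were higher (6.49%) and 8 lower (10.4%), and 5 and 3 without mouse 4434 and 5 and 5 without mouse 4477. Rpl29 was at 104, 46.5 and 92.3 FPKM against a median line of 3.24 FPKM, while the other mice ranged from 1.54 to 262 FPKM.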

How the data were processed

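The authors aligned paired-end reads of liver mRNA to annotated transcripts of the mouse reference (genome build mm9, equal to NCBI build 37) and estimated expression with RSEM (1.2.18). The deposited estimated counts are fragments per gene and transcript, without normalization, with fragments of several matches shared out. The deposited FPKM and TPM were scaled by RSEM for length and depth, and RSEM gave each transcript as a percentage of its gene (deposited isoform ratios). TPM served only as an alternative filter on low values. Alleles that differ from the reference can lose fragments, which was not tested.

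Estimated counts were rounded and fitted in edgeR 4.0.16 (TMM scaling, 1 group per line, contrast of IL-785 with the mean of the 28 other lines). Line means of log2 counts per M fragments (prior count 2) and isoform ratios were fitted in limma 3.58.1. Isoform ratios needed at least 20 estimated counts of the gene in every mouse and 12 levels after rounding, with 1 transcript a gene. Residual degrees of freedom were 26 across mice and 27 across lines. R 4.3.3, Python 3.11.15, numpy 2.4.6 and pandas 2.3.3 were used. The main edgeR contrast, limma on line means and limma on isoform ratios were tested on simulated data. The simulated counts for edgeR held no differences among the other lines. The alternative tools and units were not tested in this way.

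The line, the gene lists and the tests were chosen with earlier results of these data known. The text names up to 12 genes per direction that met all 3 criteria, without provisional names, up to 4 called genes of each list by size of the fold change, and genes the study names for this line. Genes outside this rule are named as such. Some list members are counted but not reported singly here. Thyroid hormone, cell division, circadian clock, and immediate early and heat shock lists were counted too. Egr1 and Fos are of the last list. Of 13, 10, 16 and 25 tested genes edgeR called 1, 0, 1 and 2 higher and 2, 2, 1 and 2 lower. These are 7.69%, 0%, 6.25% and 8.0% higher and 15.4%, 20.0%, 6.25% and 8.0% lower, beside 12.8% and 8.39% of all genes. The last list had 7 lower without mouse 4272, and no list had any without mouse 4477. Alternatives changed the scaling, the filter, the tool, the unit, the other lines (leaving out each in turn from the contrast, with the spread still from all mice) and the IL-785 mice. Positions are from an annotation of the same build, and promoters from RefSeq (GRCm38.p6). The labels name no batch.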

Additional observations from a re-analysis of the deposited data

How the results depend on the processing

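Of 98 genes followed singly that edgeR called, 42 kept their direction and their call in all of the 45 alternatives, 56 lost the call in at least 1, and 6 changed sign in at least 1. Of 518 recomputed counts over gene lists, 420 were within 1.5 times the reported count. The edgeR count of 2390 was 763 with a minimum of 2-fold, 2555 with DESeq2 and 2381 with DESeq2-type size factors. It ranged from 1581 (without mouse 4477) to 2456 when a mouse or a line was left out. limma on log2(FPKM + 1) turned the split to 645 higher and 1418 lower, and on log2(FPKM + 0.1) to 698 and 1441. The 37 calls on line means were 242 with all genes of any count, 62 with edgeR's default filter, 56 with the line as a random block, 85 against lines of at most 20 g and 105 against lines of at most 9.1 weeks. Van der Waerden scores with limma gave 0 calls there, with 297 genes at an unadjusted p under 0.05. Leaving out a mouse or line gave 34 to 111, with 97 without mouse 4477 and 111 without IL-3912. The 79 genes outside all other mice were 457 against lines of at most 20 g, 167 against lines of at most 9.1 weeks and 125 without lines of 1 mouse, since fewer mice are then to be passed, and 79 to 149 when a mouse or line was left out, with 149 without mouse 4272. The 257 isoform ratios were 99 against lines of at most 20 g, 151 with van der Waerden scores, and 144 (without mouse 4434) to 199 when a mouse was left out, with 154 without mouse 4477. The 6 ratios on line means were 3 against lines of at most 20 g and 0 with van der Waerden scores in limma, with 89 at an unadjusted p under 0.05. The female-biased genes called higher were 3 to 14, the 3 being without mouse 4477, and the interferon-stimulated genes called lower were 12 against lines of at most 20 g. Without mouse 4434 the log2 fold changes of Cfd and Plin1 were -0.017 and -1.50 (up to 5.39 and 5.49 without another mouse). Without mouse 4477 that of Cyp3a41b was -1.55 (6.45 at most). Without mouse 4272 those of Egr1, Fos and Moxd1 were -0.15, -0.46 and -5.87 (1.94, 1.82 and 5.26 at most), and that of Fos was -0.0035 with limma on log2(FPKM + 1). Igfals, which was not called, was at -0.0022 with edgeR's default filter, -0.061 with library size only, -0.051 with limma on log2(FPKM + 0.1) and -0.051 on log2(FPKM + 1), and between -0.036 and 0.039 when a mouse or line was left out. Apart from the numbers of genes and mice in each setting, the cause of these changes was not tested. No paired analysis was possible because the replicate numbers are mouse numbers that no 2 lines share. Genes near 2 FPKM and isoform ratios of genes with few fragments, such as Rhbg, are limited by depth.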

Other observations

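The 11 genes with provisional names that met all 3 criteria ranged widely in the size of the gap to the other mice. Gm15454, which the annotation holds as a pseudogene, was at 44.0, 14.0 and 43.2 FPKM in the IL-785 mice, against at most 1.43 FPKM in the 52 other mice. Gm10709 was at 25.9, 9.33 and 19.5 FPKM against at most 0.33 FPKM, and Gm5561 at 8.96, 3.95 and 9.44 FPKM against at most 0.19 FPKM. At these 3 genes mouse 4434 had the lowest level of the 3. The pseudogenes Gm15210 and Slc39a1-ps were at 8.09, 5.66 and 7.74 FPKM and at 3.28, 3.03 and 2.83 FPKM, against at most 0.08 and 0.05 FPKM. Gm10681 and Gm4450, which lie within the same stretch of chromosome 3, were at 15.5, 5.96 and 9.93 FPKM and at 11.3, 2.24 and 7.08 FPKM, against at most 0.44 and 1.72 FPKM. BC021614 was the most abundant, at 319, 377 and 290 FPKM against 1.27 to 148 FPKM. The other higher genes named here stayed under 2 FPKM in all other mice and passed the filter through IL-785 only. Lower in IL-785 were Gm11428 (0.00, 0.08 and 0.00 FPKM against 1.33 to 40.01 FPKM), 1700113A16Rik (0.05, 0.00 and 0.00 FPKM against 0.32 to 3.05 FPKM) and 1300017J02Rik (94.1, 161 and 92.5 FPKM against 167 to 338 FPKM). Copies of other genes can take up shared fragments, so these levels are uncertain.

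Other genes stood outside all other mice without a call on line means, and are named here because of their values. Tff3, a trefoil peptide of mucous epithelia, was at 249.6, 153 and 122 FPKM against at most 104 FPKM. Gsdma3, a pore-forming gasdermin, was at 28.4, 29.1 and 26.8 FPKM and was listed at 0 in 47 of the other mice, while the only IL-1452 mouse had 16.4 FPKM. The relative Gsdmd was below all other mice, at 6.92, 5.58 and 5.48 FPKM against 7.36 to 25.3 FPKM, as were the interferon-induced Ifi35 (8.22, 7.23 and 7.26 FPKM against 8.38 to 31.7 FPKM) and Gbp7 (0.49, 0.57 and 0.49 FPKM against 0.70 to 5.26 FPKM).

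Within the line, the 3 mice differed from each other at single genes. More than 4-fold apart from both line-mates were 22 genes in mouse 4272, 40 in mouse 4434 and 40 in mouse 4477. In the other lines of 3 mice these numbers were 24 to 53 in IL-2156, 7 to 11 in IL-611 and 4 to 12 in IL-670. In IL-2750, whose labels were treated as in doubt, mouse 4430 had 223, against 34 and 17 in its line-mates. Without IL-2750 and IL-1052 among the other lines, edgeR called 1602 genes higher and 1106 lower in IL-785.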
